A study of Mus musculus with 4 samples.

Results

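Laminin chains are the subject here: the genes Lama1, Lama2, Lama3, Lama4, Lama5, Lamb1, Lamb2, Lamc1 and Lamc3, chosen by name as 9 of the 33696 genes counted, and all 9 were detected. They were followed through single-nucleus RNA sequencing of photothrombotic (PT) cortical lesions, a focal ischaemic injury made by light-activated clotting, and of the perilesional cortex, both taken at 21 days post injury (dpi). The control library came from wild-type mice (WT), and the other from Col1a2(creER); Cxcl12(flox) mice, in which tamoxifen-inducible Cre driven from Col1a2 was meant to delete the chemokine gene Cxcl12 in fibroblasts (Cxcl12-cKO). Each library pooled 1 female and 1 male mouse, so genotype rests on 1 library per group, the control mice are labelled WT, and no test between the genotypes was possible. The age of each mouse is not given in the labels, and the study's methods describe adult animals.

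Laminins are cross-shaped trimers of an α, a β and a γ chain, secreted as the sheet-forming scaffold of basement membranes. The α chain sets most of the receptor binding, through integrins and dystroglycan, while nidogens, collagen IV and perlecan tie the laminin sheet to the rest of the membrane. In the brain, basement membranes lie under the pia and around vessels, where endothelial cells, mural cells, fibroblasts and astrocyte endfeet each contribute chains. Lama1 is known as the leptomeningeal and Lama2 as the parenchymal α chain, and Lama4 and Lama5 as the endothelial ones.

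Region was read from oligonucleotide tags put on the nuclei before lesion and perilesional tissue were mixed at 75% and 25%. The 4 tags are shown because every statement on lesion against parenchyma rests on them, and they are printed 5′ to 3′.
CMO309, control lesion: gttgatctataacag
CMO310, control parenchyma: gcaggaggtatcaat
CMO311, Cxcl12-cKO lesion: gaatcgtgattcttc
CMO312, Cxcl12-cKO parenchyma: acatggtcaacgctg
The median nucleus carried 5155, 4985, 5244 and 4674 unique molecular identifiers (UMIs) of its own region's tag in that order. Nuclei of the other region of the same library carried medians of 229, 116, 210 and 133 UMIs of the same tags.

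After filtering, 8095 control and 7933 Cxcl12-cKO nuclei remained from the lesion, and 2877 and 2838 from the parenchyma. Median UMIs per nucleus were 2962 and 2975 in the lesion and 15915 and 16648 in the parenchyma, where neurons made up most nuclei. Between the libraries 47 barcodes were shared, against 0 between the regions of a library. Nuclei with UMIs of both sexes, which marks mixed nuclei or free RNA, made up 9.75% to 14.3% of a matrix. The targeted gene went against its label: in lesional fibroblast-like nuclei Cxcl12 stood at 106 CPM (UMIs of a gene per 1e+06 UMIs; 95% interval 101 to 112) in the control and at 215 (208 to 223) in the other library. It was higher in nuclei of the female mouse (101 and 264) and of the male mouse (108 and 188). Counting from the 3′ end may not cover the floxed part, whose position the labels do not give, and this cannot be told apart from an exchange of the library labels, which would turn the sign of every ratio of Cxcl12-cKO over control given here. The second library, its mice and its nuclei are therefore named only by the label Cxcl12-cKO.

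Levels are given in CPM, the summed UMIs of a gene over the nuclei of a class divided by all UMIs of those nuclei, with exact 95% Poisson intervals. These intervals, and those of ratios, cover counting error only and not differences between mice. Chains were not compared with each other in level, because nuclear reads depend on transcript length. All laminin genes were left out of the genes that grouped the nuclei, so no class or state below was made from them.

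Lama2 gave 53016 UMIs in all kept nuclei, Lamc1 17408, Lama4 17121, Lama1 5361, Lamb1 3253, Lama3 2504, Lamb2 1388, Lamc3 818 and Lama5 321. Fibroblast-like nuclei, 51.5% of control and 51.4% of Cxcl12-cKO lesional nuclei, held 90.8% of the lesional Lama1 UMIs, 89.3% of Lamc3, 85.5% of Lama2, 76.7% of Lama4, 76.4% of Lamb2, 74.2% of Lamb1 and 69.8% of Lamc1. Lama3 and Lama5 were the exceptions, with 33.1% and 12% of their lesional UMIs in that class.

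**Figure D1:**
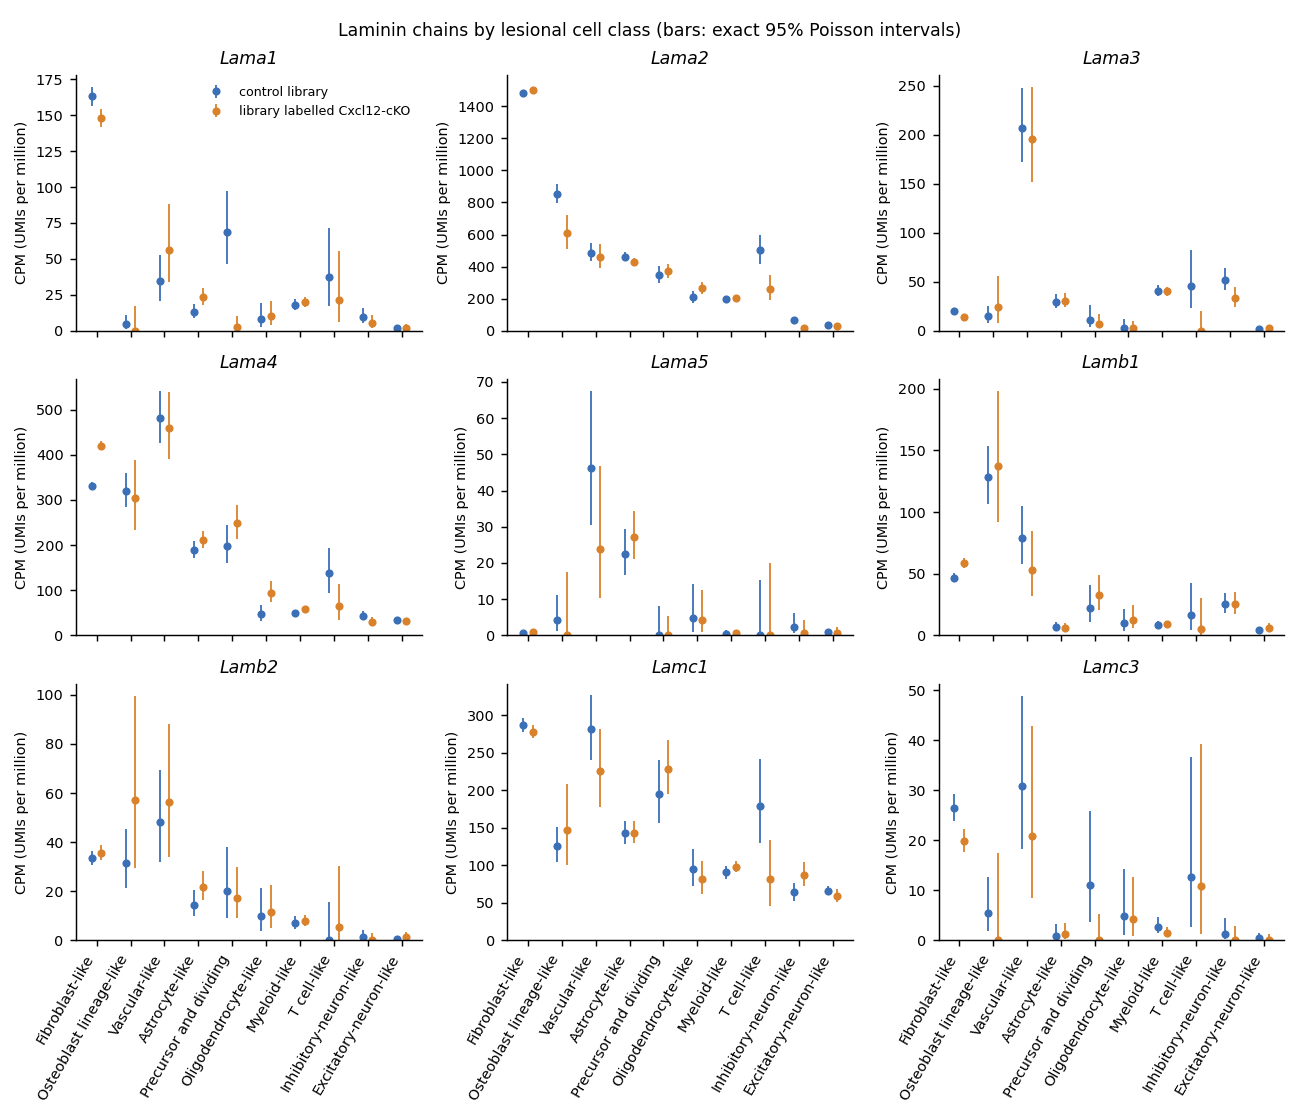
Levels of the 9 laminin chains (vertical axes, CPM) in 10 cell classes of the lesion (horizontal axis), in the control library (blue) and the library labelled Cxcl12-cKO (orange); points are the summed level of a class and bars exact 95% Poisson intervals. Lama1 and Lama2 stood highest in fibroblast-like nuclei, Lama3 in vascular-like nuclei and Lamb1 in osteoblast lineage-like nuclei in both libraries.

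Each chain had its own order over the 10 lesional classes. Fibroblast-like nuclei were the highest class in both libraries for 3 of the 9 chains, Lama1, Lama2 and Lamc1, against 4.13% of all 17303 genes compared. Lama1, the α chain of laminin-111, reached 163 CPM (157 to 170) in control and 148 (142 to 155) in Cxcl12-cKO fibroblast-like nuclei. The next class was precursor and dividing nuclei in the control (68.6) and vascular-like nuclei in the other library (56.4), so the intervals did not meet. Lama2, the α chain of laminin-211, known from merosin-deficient muscular dystrophy, reached 1482 (1462 to 1502) and 1503 (1483 to 1523), above osteoblast lineage-like nuclei at 853 and 608. Lamc1, the most widely used γ chain, was highest only narrowly: 287 (278 to 296) and 278 (270 to 287) in fibroblast-like nuclei against 281 (240 to 328) and 226 (178 to 282) in vascular-like nuclei, with overlapping intervals.

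Vascular-like nuclei were the highest class in both libraries for Lama3, Lama4 and Lamc3, against 5.17% of all genes. Lama3, the α chain of epithelial laminin-332, stood at 207 (172 to 248) in control and 196 (152 to 249) in Cxcl12-cKO vascular-like nuclei, with the next class at 51.6 and 40.1. Lama4, an endothelial and mesenchymal α chain, stood at 482 (427 to 542) and 460 (390 to 538). Fibroblast-like nuclei followed at 331 (321 to 340) and 421 (410 to 431), apart from the vascular-like interval in the control and inside it in the other library. Lamc3 rested on 18 and 7 vascular UMIs and did not differ beyond its interval from fibroblast-like nuclei (26.4 and 19.8).

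Lamb1, the most common β chain, was highest in osteoblast lineage-like nuclei at 128 (106 to 154) and 138 (92.2 to 198), a class that was highest in both libraries for 4.65% of all genes. This class held 345 and 83 nuclei. Vascular-like nuclei held 78.9 and 53.4 CPM of Lamb1, and fibroblast-like nuclei 46.5 and 58.8. The top class of Lama5 and Lamb2 changed between the libraries. Lama5, the α chain of mature vessel and epithelial membranes, stood at 46.3 (30.5 to 67.4) and 23.7 (10.3 to 46.8) in vascular-like nuclei and at 22.4 (16.7 to 29.5) and 27.2 (21.1 to 34.5) in astrocyte-like nuclei, which do not differ beyond counting error in the Cxcl12-cKO library. In fibroblast-like nuclei it was close to absent, with 11 UMIs in 4167 nuclei and 14 in 4079. Lamb2, the β chain of synaptic and vascular membranes, stood at 48.0 and 56.4 in vascular-like, 33.4 and 35.5 in fibroblast-like and 31.5 and 57 in osteoblast lineage-like nuclei, with overlapping intervals.

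Fibroblast-like nuclei of the lesion fell into 4 states. A leptomeningeal-like state held 1594 control and 1396 Cxcl12-cKO nuclei, a late inner-like state 965 and 1286, a dural-like state 1227 and 908, and a state that matched no marker list 381 and 489. The last is called Dcdc2a-led here after a leading gene, and Gm30613, Col4a6 and Kl were others. The states divided the chains into 3 patterns.

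Lama1, Lamb1 and Lamc3 stood highest in the Dcdc2a-led state. Lama1 stood there at 1163 CPM (1103 to 1226) in the control, against 825 (781 to 872) in the library labelled Cxcl12-cKO, 6.51-fold and 4.80-fold above the next state. The leptomeningeal-like state followed with 179 and 172, and the late inner-like (12.7 and 16.5) and dural-like (7.58 and 8.0) states were far lower. From 9.14% and 12% of fibroblast-like nuclei, the Dcdc2a-led state gave 59.2% of fibroblast Lama1 UMIs in either library.

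Lamc3, a γ chain of restricted tissue range, followed the same order. It stood at 158 (137 to 183) and 100 (85.2 to 117) in the Dcdc2a-led state and at 33.9 and 27.1 in the leptomeningeal-like state, and below 5 CPM in both other states. Lamb1 stood at 178 (155 to 203) and 182 (161 to 204) there, 3.41-fold and 3.07-fold above the next state, with 52.2 and 59.2 in leptomeningeal-like, 43.4 and 50.9 in late inner-like and 12 and 14.9 in dural-like nuclei. By UMIs, this state gave 49.7% and 53.8% of fibroblast Lamc3 but 31.7% and 32.9% of Lamb1, of which the larger leptomeningeal-like state gave 38.2% and 30.9%. Being past 1.5-fold over every other state in both libraries held in the Dcdc2a-led state for these 3 of 8 chains with at least 50 UMIs, against 3.36% of 14312 genes.

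The contrast was also one of nuclei. With every nucleus thinned to 1000 UMIs, 53.9% and 49.5% of Dcdc2a-led nuclei held a Lama1 UMI, against 13.3% and 12.7% of leptomeningeal-like and at most 1.29% of late inner-like and dural-like nuclei. Without thinning the Dcdc2a-led shares were 73.8% and 68.9%, and the highest nucleus held 46 Lama1 UMIs in the control and 29 in the other library. In thinned Dcdc2a-led nuclei Lamc3 was found in 21.8% of nuclei with a Lama1 UMI and in 9.25% of those without in the control, and in 16.1% and 5.39% in the other library. The same pair of shares in leptomeningeal-like nuclei was 9.09% and 2.93%, and 8.0% and 1.92%. Lamb1, in thinned Dcdc2a-led nuclei with and without a Lama1 UMI, was found in 15.8% and 9.83% in the control. In the other library these shares were nearly equal, at 14.4% and 14.1%.

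Lama3 took the opposite place. It stood at 84.4 (74.6 to 95) and 36.7 (31.7 to 42.4) in the late inner-like state, and between 0.842 and 3.72 in every other state of either library. The late inner-like state held 93.2% and 88.6% of fibroblast Lama3 UMIs, and Lama3 stood 36.8-fold and 9.55-fold above the next state, a rank past 1.5-fold that 2.58% of all genes had in that state. Few nuclei carried it: 157 of 965 control and 134 of 1286 Cxcl12-cKO nuclei had a UMI, with at most 8 and 5 UMIs in a nucleus. The Lama3 level of this state was less than that of endothelial-like nuclei, given below.

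Lama2, Lama4 and Lamc1 were found in every state and leaned towards the Dcdc2a-led state. Lamc1 stood at 586 (544 to 632) and 462 (429 to 497) there, at 378 and 369 in leptomeningeal-like nuclei, and at 206 and 210 in late inner-like and 180 and 178 in dural-like nuclei. Lama4 stood at 552 (510 to 596) and 609 (571 to 649) there, then at 365 and 484 in late inner-like nuclei. Lama2 ranged from 1317 to 1866 in the control and from 1176 to 1975 in the other library, with the Dcdc2a-led and late inner-like states above the leptomeningeal-like and dural-like ones.

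Lamb2 varied little, from 27.7 to 40.7 and from 28.9 to 45.8 over the 4 states, and was highest in leptomeningeal-like nuclei, as were 10.7% of all genes. Altogether 6 of the 8 chains were highest in the Dcdc2a-led state in both libraries, against 16.3% of all genes. Lama5 had at most 8 UMIs in a state, and no order was read from it.

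**Figure D2:**
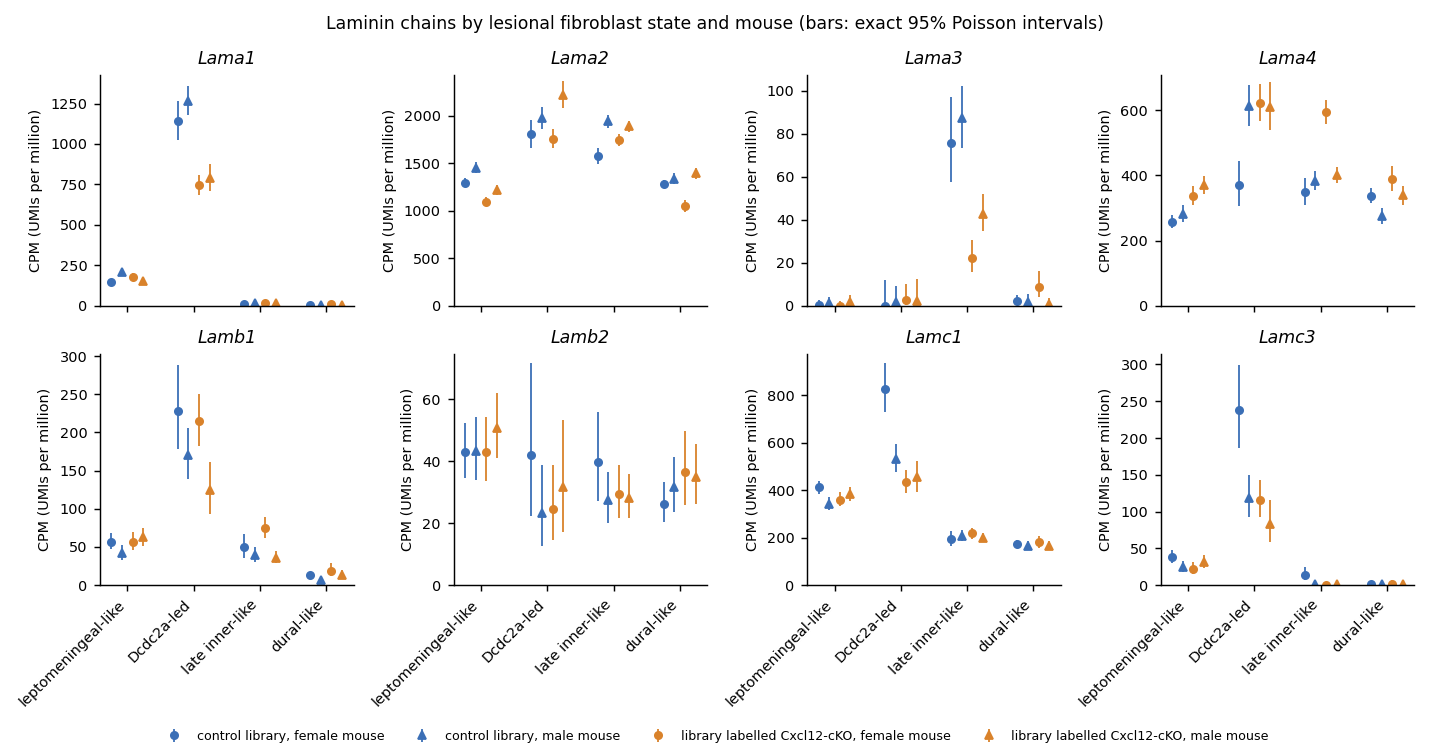
Levels of 8 laminin chains (vertical axes, CPM) in the 4 fibroblast states of the lesion (horizontal axis) for the female (circles) and male (triangles) mouse of the control library (blue) and of the library labelled Cxcl12-cKO (orange); points are summed levels and bars exact 95% Poisson intervals. In each of the 4 mice Lama1, Lamb1 and Lamc3 stood highest in the Dcdc2a-led state and Lama3 in the late inner-like state, and Lamb2 varied little between states.

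The partners of laminin in basement membranes ran the same way by state. Of 11 partner genes with at least 50 UMIs, 9 were highest in the Dcdc2a-led state in both libraries: the laminin linkers Nid1 and Nid2, perlecan (Hspg2), the collagen IV chains Col4a1, Col4a2, Col4a5 and Col4a6, and the membrane collagens Col15a1 and Col18a1. Col4a4 was highest in leptomeningeal-like and Agrn, the synapse-organising proteoglycan agrin, in dural-like nuclei. Unlike laminins, these genes could take part in the grouping of nuclei, and Col4a6 was a leading gene of the Dcdc2a-led state, so this is a description of that state.

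Within the vascular-like class, endothelial-like and mural-like nuclei differed most plainly in Lama3 and Lama2. In endothelial-like nuclei (104 control, 51 Cxcl12-cKO) Lama3 stood at 346 and 314 and Lama4 at 583 and 493. Lama2 was low there at 41.4 and 61.6, and Lamc3 had 0 UMIs in either library. Mural-like nuclei, the pericytes and smooth muscle cells around vessels (43 and 16), held Lama2 at 918 (724 to 1147) and 1218 (910 to 1598). Lama4 stood at 477 (341 to 649) and 703 (474 to 1003) in them, with intervals that overlapped the endothelial-like ones (495 to 683 and 391 to 614) in both libraries.

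Lama3 had 1 and 0 UMIs in mural-like nuclei, Lamc3 10 and 3 UMIs (119 and 70.3 CPM), and Lamb2 9 and 8 UMIs (107 and 187). Endothelial-like nuclei held Lamb2 at 30.1 (13 to 59.3) and 49.3 (21.3 to 97.2), which overlapped the mural-like intervals (49.1 to 204 and 80.9 to 369) in both libraries. A further vascular subcluster with markers of several classes (49 and 36 nuclei) held Lama2 at 839 and 704, and its Lama2 was not read as vascular.

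**Figure D3:**
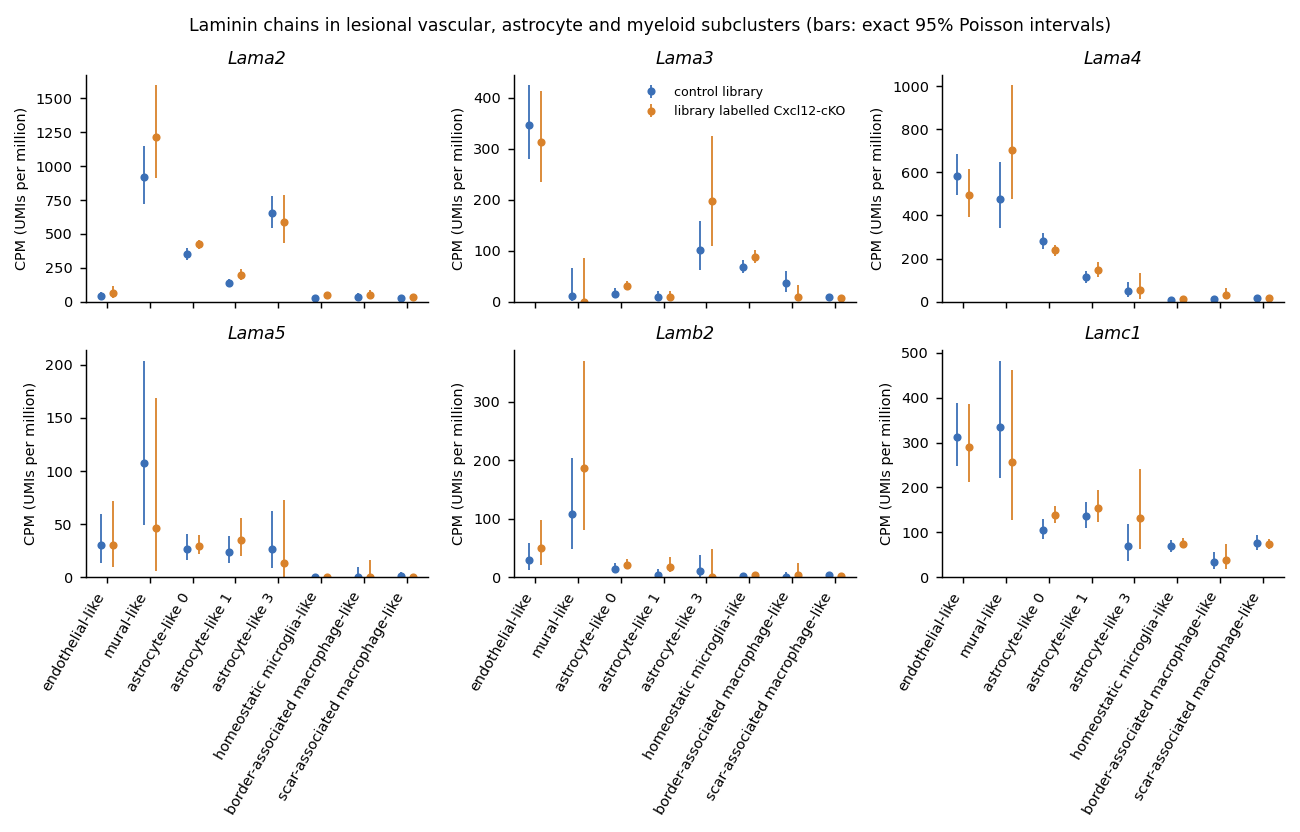
Levels of 6 laminin chains (vertical axes, CPM) in subclusters of lesional vascular-like, astrocyte-like and myeloid-like nuclei (horizontal axis) in the control library (blue) and the library labelled Cxcl12-cKO (orange); points are summed levels and bars exact 95% Poisson intervals. Lama3 stood highest in endothelial-like nuclei and Lama2 in mural-like nuclei in both libraries, and wide bars mark subclusters of few nuclei.

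Astrocyte-like nuclei held several chains. Lama2 stood at 461 (433 to 489) and 427 (402 to 453) in lesional astrocyte-like nuclei, Lama4 at 190 and 211, and Lamc1 at 143 in both libraries. The astrocyte-like subcluster that was largest over both libraries together (178 and 298 nuclei) held Lama2 at 23.7% and 28.2% of the fibroblast-like level, and the 6 fibroblast markers together at 5.81% and 4.66% of theirs, with none of the 6 at 0. A second subcluster (200 and 141 nuclei) held Lama2 at 9.33% and 13.2% beside those markers at 8.18% and 11.5%. Lama5 stood at 26.4 and 29.8 in the first of these, while fibroblast-like nuclei had less than 1 CPM.

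Lesional and parenchymal astrocyte-like nuclei differed in their chains, although the parenchyma held only 37 and 45 such nuclei, most of them of 1 subcluster, given below. Lama3 stood at 29.5 (22.8 to 37.4) in the lesion and 251 (183 to 334) in the parenchyma of the control, and at 30.8 (24.3 to 38.5) and 169 (120 to 230) in the other library. Lama2 was also lower in the lesion, at 461 against 822 and 427 against 804. Of 7 chains compared, these 2 were past 1.5-fold lower in both libraries, against 10.7% of all genes.

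In the other direction, Lama4 stood at 190 in the lesion and 5.45 (1 UMI) in the parenchyma of the control, and at 211 and 17.3 (4 UMIs) in the other library. Lamc1 stood at 143 in the lesion of both libraries, and at 49.0 and 30.2 in the parenchyma. With Lama1 and Lama5, which had at most 2 UMIs each in parenchymal astrocyte-like nuclei, 4 of the 7 chains were past 1.5-fold higher in the lesion in both libraries, against 20.2% of all genes. For Lama1 and Lama5 the ratio intervals held 0 in both libraries. Most lesional Lama1 UMIs of the class lay in a mixed astrocyte subcluster, given below. The fibroblast marker list moved with region too, from 3.54% and 2.51% of the fibroblast-like level in the parenchyma to 20.8% and 9.35% in the lesion, and its part in these differences was not tested. In the subcluster of 178 and 298 nuclei, where that list was at 5.81% and 4.66%, Lama4 was at 280 and 238. In the subcluster of 200 and 141 nuclei it was at 113 and 145, or 34.1% and 34.5% of the fibroblast-like level.

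A small astrocyte-like subcluster was in the lesion (54 and 18 nuclei) closer to the parenchymal pattern, with Lama3 at 102 (61.3 to 159) and 197 (110 to 325) and Lama4 at 48.2 and 52.5. The same subcluster in the parenchyma held Lama3 at 277 and 178. It held 87 and 60 nuclei over both regions, and so most of the 37 and 45 parenchymal astrocyte-like nuclei. The comparisons of region above are therefore also comparisons of subclusters, and the part of each was not tested.

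Homeostatic microglia-like nuclei, the resident macrophages of the brain, held Lama3 at 68.2 (56.7 to 81.4) and 88.0 (76.6 to 101). Scar-associated macrophage-like nuclei, named on 3 of 6 markers, held 8.22 (3.94 to 15.1) and 6.73 (3.85 to 10.9), so the intervals of these myeloid groups were far apart in both libraries. Lamc1 did not separate them, at 68.8 and 74.7 against 76.5 and 74.1.

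Most Lama2 UMIs of the myeloid-like class came from a subcluster of 270 and 318 nuclei in which many nuclei carried UMIs of both sexes. It held Lama2 at 703 and 749 and the fibroblast markers at 77.1% and 59.4% of the fibroblast-like level, while homeostatic microglia-like nuclei held Lama2 at 29.4 and 50.7. T cell-like nuclei (122 and 104) held Lama2 at 33.8% and 17.3% of the fibroblast-like level beside fibroblast markers at 29.2% and 17.3%, and the part of RNA from fibroblasts in that level was not tested.

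**Figure D4:**
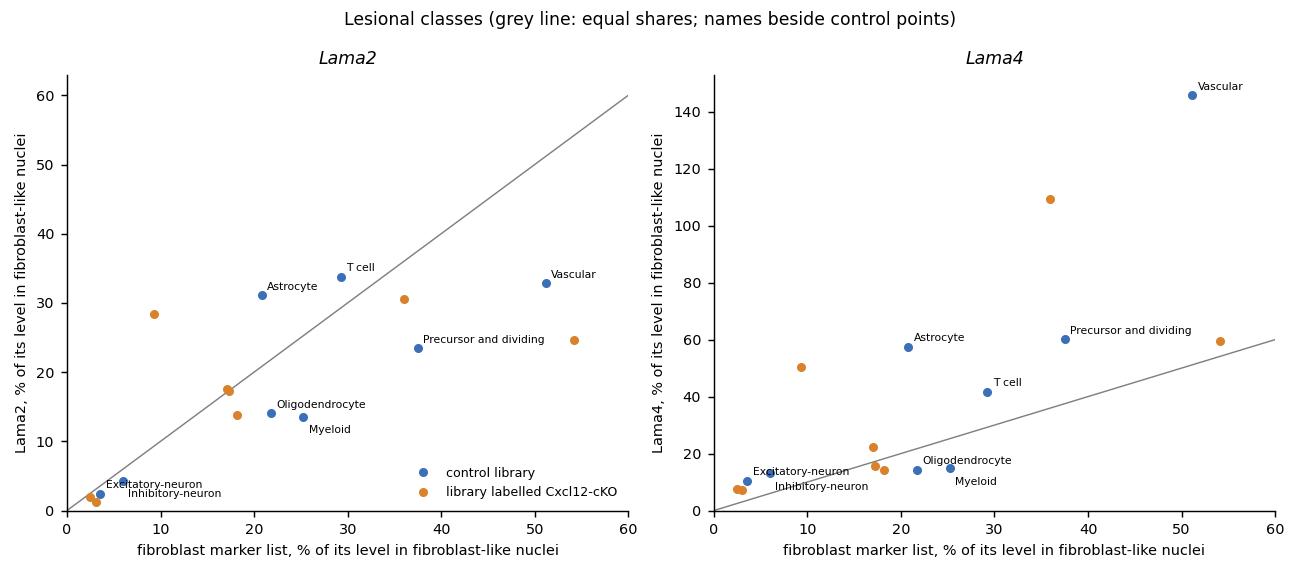
Level of Lama2 (left) and Lama4 (right) in lesional classes as a percentage of the level in fibroblast-like nuclei (vertical axes), against the summed level of 6 fibroblast markers on the same scale (horizontal axes), for the control library (blue) and the library labelled Cxcl12-cKO (orange). Points near the grey line of equal shares, such as T cell-like nuclei for Lama2, hold no more of the chain than of fibroblast markers, while astrocyte-like nuclei lie above the line for Lama2 and Lama4 and vascular-like nuclei for Lama4.

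Neurons used chains by subtype. Parenchymal inhibitory-neuron-like nuclei led by Pvalb, the marker of fast-spiking interneurons, held Lama3 at 75.3 in the control and 82.5 in the other library and Lama1 at 23.4 and 20.1. Nuclei led by Sst, a neuropeptide of dendrite-targeting interneurons, held Lama4 at 128 and 122. A small group led by Adamts19 (31 and 25 nuclei) held Lama3 at 228 and 292 and Lamb1 at 69.0 and 213. Against the rest of the class it matched the neural progenitor list first (3 of 4 markers) and the inhibitory neuron list second.

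Among excitatory-neuron-like nuclei of the parenchyma, those led by Rorb, a factor of mid-cortical layers, held Lama4 at 73.5 and 88.1, and those led by Syt6 at under 4 CPM. Lamc1 stood at 60.1 and 56.4 over the class. In these deep nuclei fibroblast markers lay at 0.745% and 0.838% of the fibroblast-like level. Between lesion and parenchyma, Lama1 and Lama2 of excitatory-neuron-like nuclei were past 1.5-fold higher in the lesion in both libraries, against 3.52% of all genes. Lamb1 was past it lower, against 18% of them. Lama1 rested on 15 and 7 lesional UMIs, and its ratio intervals held 0 in both libraries. Lama2 stood at 35.7 and 30.3 in the lesion and 16.0 and 19.1 in the parenchyma, beside fibroblast markers at 3.57% and 2.44% of the fibroblast-like level in the lesion, whose part was not tested. Lamb1 stood at 4.35 and 6.38 in the lesion and 8.80 and 10.1 in the parenchyma. Fibroblast-like nuclei had Lama2 past 1.5-fold higher in the lesion in both libraries (912 and 919 in the parenchyma) and Lama3 (1 UMI each there), against 10.4% of genes. Lamb2 was past it lower (12 UMIs each there), against 15.5%. The ratio intervals of Lama3 and Lamb2 held 0 in both libraries. Parenchymal fibroblast-like nuclei (51 and 50) held the fibroblast markers at 28.2% and 31.8% of the lesional level. None of 6 chains passed 1.5-fold in both libraries in inhibitory-neuron-like nuclei, against 3.12% of genes higher and 13.8% lower.

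The main question of the design is whether laminins of lesional fibroblasts differed between the control and the library labelled Cxcl12-cKO. Of the 8 chains with at least 50 UMIs over both libraries, 0 were past 1.5-fold higher, against 3.21% of 14312 genes, and 0 past 1.5-fold lower, against 2.53%. The median log2 ratio of Cxcl12-cKO over control was -0.01 for the chains and 0.00179 for all genes. No test across replicates was possible, so the values of each mouse are given in its place. The share of all genes whose mice did not overlap between the libraries is not given. A lack of overlap below therefore only describes these mice, and the chains and states named for it were picked after their values were seen.

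Lama4 was higher in both mice labelled Cxcl12-cKO. Fibroblast-like nuclei held it at 311 in the female and 345 in the male control mouse and at 475 and 391 in those of the other library, so the mice of the libraries did not overlap. The log2 ratio was 0.35 (0.29 to 0.40), or 0.61 in females and 0.18 in males. By state it was higher in leptomeningeal-like nuclei (258 and 282 in control, 338 and 370 in Cxcl12-cKO mice) and in late inner-like nuclei (349 and 383, then 595 and 401; log2 ratio 0.40, 0.30 to 0.51), and it overlapped between mice in the Dcdc2a-led state.

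Lamc3 and Lama3 were lower as pooled levels. Lamc3 stood at 26.4 and 19.8 (log2 ratio -0.42, -0.64 to -0.19), with 29.2 and 21.1 in the female and male control mouse and 24.4 and 16.3 in the others, so mice overlapped. Lama3 stood at 20.4 and 14.4 (log2 ratio -0.50, -0.77 to -0.24), with 11.5 and 26.7 in control and 9.55 and 16.8 in Cxcl12-cKO mice, which also overlapped. Within the late inner-like state the overlap went away: Lama3 stood at 75.5 and 87.2 in the female and male control mouse and at 22.3 and 42.7 in the others, a log2 ratio of -1.20 (-1.48 to -0.93). This state made up more of the fibroblasts in the Cxcl12-cKO library (31.5% against 23.2%), and with state shares set to those of the control the log2 ratio of Lama3 over all fibroblast-like nuclei was -0.99.

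With 1 mouse per sex and library, so that sex and mouse cannot be told apart, Lama1 moved in opposite directions in females and males. Its pooled log2 ratio was -0.14 (-0.22 to -0.05), but it was 0.54 in females, from 117 to 171, and -0.90 in males, from 205 to 109. The Dcdc2a-led share of fibroblast-like nuclei ran alongside, at 6.82% in the female and 11.1% in the male control mouse and at 15.8% and 8.10% in the others. Whether that share accounts for the opposite directions was not tested. Inside the Dcdc2a-led state Lama1 was lower in both Cxcl12-cKO mice, at 746 and 791 against 1139 and 1269, a log2 ratio of -0.50 (-0.61 to -0.38).

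In the same state Lamc3 was lower too, at 116 and 83.7 against 238 and 119 (log2 ratio -0.66), and Lamc1 at 436 and 455 against 827 and 534 (-0.34), with neither chain overlapping between the mice of the libraries, although for Lamc3 the male control and female Cxcl12-cKO mice were nearly equal. Lamb1 was at 214 and 124 against 229 and 170 and overlapped. With state shares set to those of the control, the log2 ratios over all fibroblast-like nuclei were -0.29 for Lama1, -0.52 for Lamc3 and 0.26 for Lama4.

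Lamb1 stood at 45.5 and 44.5 in the female and male control mouse and at 77.6 and 44.4 in the others, so that its pooled log2 ratio of 0.34 (0.19 to 0.48) came from the female. Over all fibroblast-like nuclei Lama2, Lamb2 and Lamc1 had log2 ratios of 0.02, 0.09 and -0.05, with intervals that held 0. By state, Lama2 was lower in leptomeningeal-like nuclei, at 1093 and 1216 in Cxcl12-cKO mice against 1294 and 1450 in control mice. Its log2 ratio there was -0.23 (-0.28 to -0.18), and between -0.06 and 0.08 in the other states. Lama5 was too rare to compare.

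**Figure D5:**
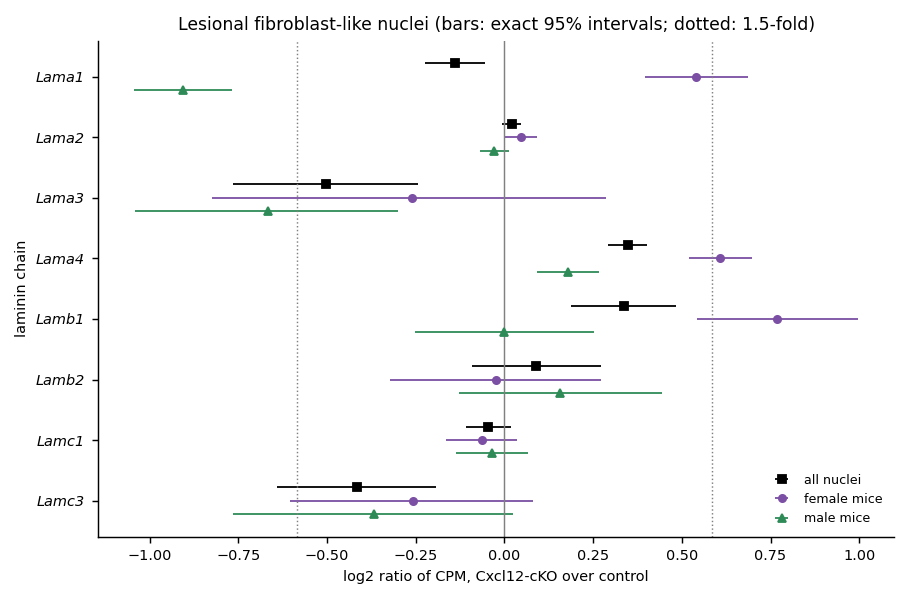
Log2 ratio of levels in the library labelled Cxcl12-cKO over the control (horizontal axis) for 8 laminin chains (vertical axis) in lesional fibroblast-like nuclei, for all nuclei (black squares) and for nuclei of the female (purple circles) and male (green triangles) mice; bars are exact 95% intervals from counts and dotted lines mark 1.5-fold. No black square passes 1.5-fold, and Lama1 lies at 0.54 in females and -0.90 in males.

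Of 7 chains compared in lesional astrocyte-like nuclei, 1 was past 1.5-fold higher in the library labelled Cxcl12-cKO, against 3.83% of genes. This was Lama1, at 12.8 and 23.2 CPM. Its log2 ratio was 1.08 in nuclei of the female mice (5 and 11 UMIs) and -0.999 in those of the male mice (11 and 7 UMIs), with intervals that held 0. A mixed astrocyte subcluster gave 25 of the 29 control and 57 of the 58 Cxcl12-cKO UMIs of Lama1, beside fibroblast markers at 54.7% and 24.6% of the fibroblast-like level, whose part was not tested. In T cell-like nuclei Lama2 and Lamc1 were past 1.5-fold lower, against 10.1% of genes, with Lama2 at 501 and 260, while the fibroblast markers in that class fell from 29.2% to 17.3% of their fibroblast-like level. In inhibitory-neuron-like nuclei Lama2 (64.2 and 18.6) and Lama3 (51.6 and 33.4) were past it lower, 2 of 5 chains against 10.3% of genes. Fibroblast markers there were at 5.99% and 3.06%, and the part of such RNA was not tested.

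In oligodendrocyte-like nuclei Lama4 was past 1.5-fold higher, at 47.2 and 94.4, 1 of 3 chains against 4.85% of genes. In parenchymal excitatory-neuron-like nuclei Lama3 was past it higher, at 2.62 and 4.79, 1 of 7 chains against 2.34%. In parenchymal fibroblast-like nuclei (51 and 50) Lama4 (317 and 169) and Lamc1 (335 and 178) were past it lower, 2 of 4 chains against 7.28% of genes. None of 5 chains passed 1.5-fold in vascular-like nuclei (6.71% of genes higher and 7.66% lower), none of 7 in myeloid-like nuclei (2.85% and 3.48%) and none of 6 in parenchymal inhibitory-neuron-like nuclei (1.93% and 1.9%).

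Few genes of the laminin pathway around the chains passed 1.5-fold between libraries in lesional fibroblast-like nuclei. Of all genes 3.21% passed it higher and 2.53% lower, so lists this short would hold few in any case. Basement membrane partners had 0 of 11 genes past 1.5-fold in either direction, with 9 above 0 and a median log2 ratio of 0.23. The highest among them were the collagen IV chains Col4a1 (0.44, 0.38 to 0.50) and Col4a2 (0.49, 0.42 to 0.55). They were at 0.90 and 0.92 in females and 0.18 and 0.20 in males. Receptors, which are integrin subunits and dystroglycan (Dag1), had 0 of 8 past it, with 4 above 0 and a median of -0.01. The highest of the 8 was Itga1, at 0.37 (0.29 to 0.45), with 0.81 in females and 0.02 in males. Bcam, the other receptor of the list, was under the minimum with 13 and 31 UMIs. Netrins, guidance proteins with laminin-like domains, had 0 of 6 and a median of -0.17.

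Of 12 enzymes that build the laminin-binding sugar of dystroglycan, 0 were past 1.5-fold higher and 1 lower, against 3.21% and 2.53% of all genes. The lower one was Pomgnt2, with 72 control and 44 Cxcl12-cKO UMIs. Its log2 ratio was -0.74, with -1.06 in females and -0.48 in males. Lamb3, a further β chain, had 13 and 24 UMIs in fibroblast-like nuclei and was under the minimum.

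Laminin receptors differed by class in transcript level. Itga1, the α subunit of a collagen and laminin receptor, stood at 701 and 579 CPM in vascular-like nuclei, at 372 (298 to 457) and 298 (225 to 388) in T cell-like, at 237 and 265 in astrocyte-like and at 147 and 190 in fibroblast-like nuclei. Itga6, a main laminin receptor subunit, was low in fibroblast-like nuclei (4.55 and 5.74) and stood at 291 and 300 in vascular-like, 190 and 257 in astrocyte-like and 229 and 223 in myeloid-like nuclei. Bcam, the receptor of Lama5, was at 56.6 and 77.2 in vascular-like and at 0.91 and 2.12 in fibroblast-like nuclei. Dag1 was at 126 in fibroblast-like nuclei of both libraries, at 103 and 128 in vascular-like and 114 and 116 in astrocyte-like nuclei, and lowest in oligodendrocyte-like nuclei at 40.7 and 35.7.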

How the data were processed

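Nuclei from 2 genotypes were measured by 10x 3′ v3.1 single-nucleus sequencing, and per the labels the authors aligned reads to GRCm39 with Cell Ranger 9.0.0 and deposited 4 filtered matrices of UMI counts per gene and barcode, 1 per library and region. Here, barcodes in the lowest or highest 2.5 percentiles of UMIs or genes, or the highest of mitochondrial share, were left out (21743 of 23489 kept). Nuclei were grouped with scanpy 1.11.5 (3000 variable genes without laminins, 30 components, Leiden resolution 0.25; 14 clusters) and named X-like from marker lists. The naming limit (log2 0.25) and the 25% both-sex limit for mixed subclusters were set after clusters were seen. Doublets were not removed. The nuclei of each mouse were found from Xist or Y-linked genes. Ratios used 0.5 added to sums and exact binomial intervals. Scripts were tested on simulated data. All 9 chains were named; other genes were named when past 1.5-fold in the same direction in both sexes, at most 3 per direction and list, and the other partner and receptor genes were chosen after their values were seen. Members and lists were chosen with earlier results of these data known. Unused per-sample columns numbered 0. A further gene of the lists is not reported here.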

Additional observations from a re-analysis of the deposited data

Results flagged for a closer look

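For 5 pairs of a chain and a class, the log2 ratio between the library labelled Cxcl12-cKO and the control had opposite signs in female and male mice with both 95% intervals away from 0, and other pairs with opposite signs are not listed. The difference between the sexes was not tested, since each rests on 1 mouse per sex and library. Lama1 in lesional fibroblast-like nuclei had a log2 ratio of 0.54 in females and -0.90 in males. Lama1 in lesional myeloid-like nuclei stood at 1.14 and -0.96, on 15 and 58 UMIs in females and 38 and 22 in males. Lama2 in the same nuclei stood at -0.58 and 0.54. A mixed myeloid subcluster (270 and 318 nuclei) held Lama1 at 37.9% and 49.5% and Lama2 at 47.4% and 49.8% of the fibroblast-like level. Fibroblast markers there were at 77.1% and 59.4%, and their part in these ratios was not tested. Homeostatic microglia-like nuclei held Lama1 at 1.36% and 3.64% of the fibroblast-like level. Lama3 in lesional inhibitory-neuron-like nuclei stood at -1.78 and 2.41, the second over few nuclei of the male Cxcl12-cKO mouse. Lama4 in parenchymal inhibitory-neuron-like nuclei stood at -0.52 and 1.08.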

How the results depend on the processing

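No paired analysis was possible because each genotype had 1 library, so no replicate could be left out either, and the nuclei of each sex were used alone instead. The 0 chains past 1.5-fold higher in lesional fibroblast-like nuclei became 2 with female mice only (Lama4 and Lamb1), and the 0 past it lower became 2 with male mice only (Lama1 and Lama3). The median log2 ratio of the chains moved from -0.01 to -0.058 with every nucleus weighted alike and to -0.082 with nuclei thinned to 1000 UMIs. The count of chains highest in fibroblast-like nuclei moved from 3 to 7 with female mice only and to 7 with male mice only, where 6 and 3 classes had 50 nuclei. It was 2, Lama1 and Lama2, without mixed subclusters, an alternative chosen after seeing the data. The share of all genes past 1.5-fold went from 5.74% to 29.7% with no UMI minimum and to 2.49% with a minimum of 200 UMIs. Of the single-chain ratios, Lama1 changed sign with female mice only (0.54), Lama5 with male mice only (-0.48), Lama2 in 3 settings (all within 0.05 of 0), Lamb2 in 3 (lowest -0.28 with thinned nuclei), and Lamb1 was -0.00 with male mice only; the other 4 chains kept their sign in every setting. The cause of these changes was not tested. Clustering at resolution 0.5, or with laminins kept among the clustering genes, moved 0 of 72 class levels, while naming each nucleus by its own markers moved 49. Thinning moved 39, and leaving out the 10% of nuclei with the highest doublet scores moved 27. Equal weight per nucleus and median-of-ratios scaling moved 23 each. With female mice only 26 levels moved and 28 did not, and with male mice only 34 and 20. Depth limits Lama5, Lamc3 and Lamb2 outside fibroblasts, and parenchymal astrocyte-like and all mural-like values.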

Other observations

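Over 26 sums of UMIs, each of a cell class in a region of a library with at least 50 nuclei, the genes whose log levels were most like a chain's were, with Pearson's r given as a description and all sums of a library sharing its depth, the following. Car13, a carbonic anhydrase, had 0.92 with Lama1. Zcchc24 had 0.98 with Lama2, and Ptprm, an adhesion phosphatase of endothelial cells, 0.87 with Lama3. Tead1, a transcription factor, had 0.96 with Lama4, and Grb10, a growth factor receptor adaptor, 0.91 with Lamb1. Ednra, an endothelin receptor, had 0.94 with Lamb2, Ptpn14, a phosphatase, 0.93 with Lamc1, and Lsr, a receptor of tricellular junctions, 0.95 with Lamc3. Lama5 had too few UMIs.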
